A study of Mus musculus with 6 samples.

Results

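Chemokines are small secreted proteins that guide leukocytes through G protein-coupled receptors. In brain tissue many of them are made by microglia, astrocytes, blood vessel cells and immune cells that enter after injury or infection. The family is named by the spacing of the first pair of conserved cysteines, which are adjacent in the CC group and separated by a single residue in the CXC group. Ccl2, Ccl7 and Ccl12 act on the monocyte receptor CCR2, and Ccl3, Ccl4 and Ccl5 attract monocytes and T cells. Cxcl9 and Cxcl10 are interferon-induced ligands of the T cell receptor CXCR3. Cxcl13 is the B cell attractant that binds CXCR5, and Cxcl16 is a membrane-anchored ligand of CXCR6.

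The genes described here are these 10 chemokines, taken by symbol from the 54658 listed genes: Ccl2, Ccl3, Ccl4, Ccl5, Ccl7, Ccl12, Cxcl9, Cxcl10, Cxcl13 and Cxcl16. RNA came from the nucleus accumbens, a part of the ventral striatum, of C57BL6 male mice 8 weeks old. All 6 libraries came from tissue injected with a herpes simplex p1005+ vector, which is used to express genes in neurons. The vector carried the long noncoding RNA Gas5 with EGFP in 3 libraries (Gas5 group) and EGFP alone in the other 3 (GFP group), lettered A, B and C in each. Both groups received virus, so the comparison shows what differed between the Gas5 and GFP libraries and not what injection did in both. Any difference between the groups in injection or dissection cannot be told apart from Gas5. The labels give neither the time after injection nor if each library is from a single mouse or pooled mice. The p-values therefore reflect the spread among these libraries, which may be technical.

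Total counts ranged from 32359052 to 56081575 per library, so that a single read was worth between 0.0180 and 0.0315 CPM (counts scaled to library size). Gas5 itself stood at 22.6, 23.3 and 23.6 CPM in Gas5 A, B and C, against 18.6, 16.5 and 18.3 CPM in GFP A, B and C, without overlap, a 1.30-fold difference (edgeR adjusted p = 0.0163). Of the span of the Gas5 gene, 26.6% is shared with other listed genes, and reads there were not counted. The 1.30-fold difference covers the rest of the span, introns included. Each of the 10 markers of medium spiny neurons, the principal neurons of the accumbens, had counts in every library, with summed levels of 3764 to 4986 CPM in the Gas5 group and 4558 to 5197 CPM in the GFP group. Markers of cortical excitatory neurons summed to 189 to 247 CPM in the Gas5 group and 413 to 554 CPM in the GFP group, and 0 of the 11 were at 0 in any library. Of these, 8 of 11 fell by edgeR and 0 rose, where 3.96% of all tested genes fell and 1.48% rose. Their median log2 fold change was -2.62. Slc17a7, which loads glutamate into synaptic vesicles, stood at 24.5 CPM ± 18.4 against 206 CPM ± 47.9 (SD, n = 3 each, edgeR adjusted p = 0.0189). Cux2, Rorb and Lamp5 made up most of the Gas5 sums and differed less, with log2 fold changes of -0.01, -0.45 and 0.10. Slc17a7 and these 3 genes were chosen after their values were seen. The part of these neuron markers in the chemokine differences was not tested.

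Of the 10 chemokines, 3 had enough reads for the model test, 5 had reads but fell below its count filter, and 2 had none because their reads were not countable. The coding stretches that give the CC and CXC groups their names are shown for the 6 chemokines on which the results turn, from the GENCODE M21 transcripts. Capitals mark the pair of cysteine codons, and each line gives the stretch 5′ to 3′ on the strand of the gene.
Ccl7: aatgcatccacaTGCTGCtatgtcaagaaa
Ccl12: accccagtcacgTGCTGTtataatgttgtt
Ccl5: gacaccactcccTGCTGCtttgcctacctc
Cxcl9: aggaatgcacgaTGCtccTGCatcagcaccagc
Cxcl13: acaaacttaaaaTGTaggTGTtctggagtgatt
Cxcl16: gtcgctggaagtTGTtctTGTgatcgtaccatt
On GRCm38 these lie at chr11:82046526-82046555 (plus strand), chr11:82102622-82102651 (plus), chr11:83529230-83529259 (minus), chr5:92326830-92326862 (minus), chr5:95958652-95958684 (plus) and chr11:70459115-70459147 (minus), in the order given. All 6 stretches are exonic and none crosses an intron. The most alike pairs of coding sequences among the 10 were Ccl3 with Ccl4, at 67.0% identity, and Ccl7 with Ccl12, at 62.6%.

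With edgeR's quasi-likelihood test, 2 of the 3 tested chemokines rose in the Gas5 libraries at an adjusted p under 0.05 and 0 fell, where 1.48% of the 17563 tested genes rose and 3.96% fell (5.44% in either direction). The 2 were Cxcl16 and Ccl5. DESeq2 called the same number higher, beside 2.82% of all genes higher and 5.67% lower, and so did limma-voom, beside 1.23% and 3.79%. With the replicate letter as a block in edgeR 1 of 3 was higher, Cxcl16, beside 2.9% higher and 5.28% lower. All 3 had a positive log2 fold change, as did 54.2% of the tested genes. Among the 8 chemokines with any count, all had a pooled CPM ratio above 1, and in 6 the lowest Gas5 library exceeded the highest GFP library. Of all 28611 genes with any count, 9.78% were arranged in that way. The 10 were chosen with earlier results of these data known, so these shares describe the set and are no test of it.

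**Figure D1:**
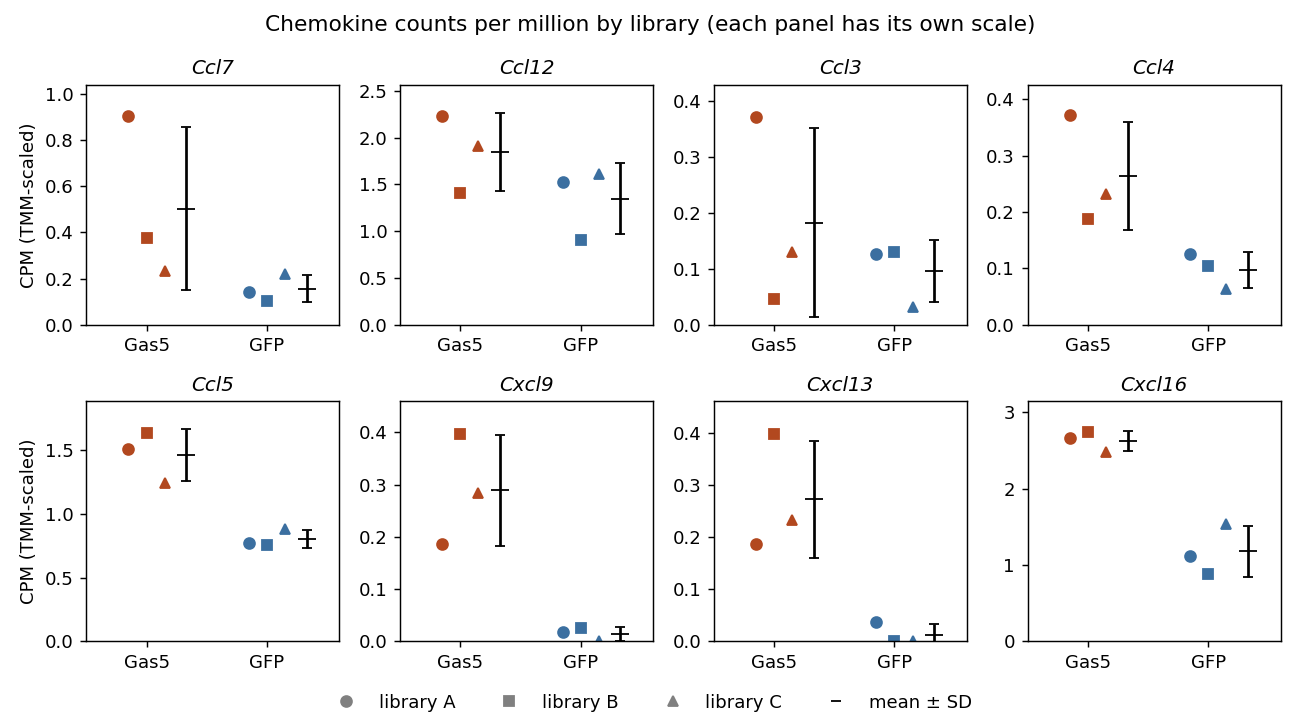
TMM-scaled CPM of the 8 chemokines with counts, in the 3 Gas5 and 3 GFP libraries (circles A, squares B, triangles C), with the mean ± SD at the right of each group and a separate scale per panel. Cxcl16 runs from 2.48 to 2.74 CPM in the Gas5 libraries and from 0.882 to 1.54 CPM in the GFP libraries, while Ccl3 and Ccl12 overlap between the groups.

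Cxcl16, made as a membrane protein by macrophages, microglia and endothelial cells and shed as a soluble attractant, had the smallest adjusted p of the tested members. It stood at 2.67, 2.74 and 2.48 CPM in Gas5 A, B and C, against 1.12, 0.882 and 1.54 CPM in GFP A, B and C. The Gas5 libraries lay close together and well above the highest GFP library. The means were 2.63 CPM ± 0.134 and 1.18 CPM ± 0.335 (SD, n = 3 each), a 2.25-fold difference with a log2 fold change of 1.17 (SE 0.204, edgeR adjusted p = 0.0184). The call was lost without GFP B, the library with the lowest level, at a log2 fold change of 1.01 (edgeR adjusted p = 0.0779). Over the whole table, genes called higher numbered 4 without GFP B and 6 without GFP C, against 260 with all libraries. The gene lies on chromosome 11 from 70453983 to 70459984 on the minus strand, with 50.3% of this span in exons. It shares 552 bases at its 5′ end (9.20% of its span) with Zmynd15 on the opposite strand, and reads there were not counted. Zmynd15 had a log2 fold change of 0.49 (edgeR adjusted p = 0.370).

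Ccl5, known as RANTES and secreted by activated T cells, macrophages and glia, was measured at 1.51, 1.64 and 1.24 CPM in Gas5 A, B and C. In GFP A, B and C it was at 0.774, 0.752 and 0.881 CPM. The groups did not overlap, and the GFP libraries were tightly grouped. The means of 1.46 CPM ± 0.203 and 0.802 CPM ± 0.0693 (SD, n = 3 each) differed 1.83-fold, with a log2 fold change of 0.87 (SE 0.196, edgeR adjusted p = 0.0417). This call rested on few libraries. It was lost with 5 of the 6 libraries left out in turn, with edgeR adjusted p between 0.0842 and 0.165, and kept without Gas5 C, at 0.0478. The log2 fold change stayed between 0.78 and 0.97 throughout. Ccl5 lies on chromosome 11 from 83525778 to 83530518, minus strand, shares no base with another listed gene, and has 20.2% of its span in exons, so most of its counted length is intron.

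Ccl12, a mouse CC chemokine that attracts monocytes through CCR2, had the highest level of the set per length but did not pass the test. It stood at 2.23, 1.40 and 1.91 CPM in Gas5 A, B and C, against 1.53, 0.908 and 1.61 CPM in GFP A, B and C. Gas5 B lay below 2 of the 3 GFP libraries, so the groups overlapped. The fitted difference was 0.45 on the log2 scale (SE 0.259, edgeR adjusted p = 0.360). In an exact permutation test of log2 CPM, 2-sided, Ccl12 gave p = 0.3, whereas Ccl5 and Cxcl16 each gave 0.1, the smallest that 3 against 3 libraries allow. Ccl12 lies on chromosome 11 from 82101845 to 82103400 on the plus strand, with 34.5% of its span in exons.

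The other monocyte attractant with counts, Ccl7, lies on the same chromosome and strand as Ccl12, from 82045712 to 82047525. Its counts were 39, 16 and 9 in Gas5 A, B and C, against 8, 4 and 7 in GFP A, B and C. Once scaled, each Gas5 library exceeded each GFP library, at 0.904, 0.374 and 0.232 CPM against 0.144, 0.104 and 0.220 CPM, but Gas5 C barely so. Of its 64 Gas5 reads, 39 came from Gas5 A. The pooled CPM ratio was 3.40, with a 95% exact binomial interval of 2.01 to 6.01 that covers counting error only. Without Gas5 A the ratio was 2.03.

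Ccl3 and Ccl4, known as macrophage inflammatory proteins, are neighbours on chromosome 11, on the minus strand from 83647844 to 83649355 and on the plus strand from 83662584 to 83664683. Ccl4 had 16, 8 and 9 counts in Gas5 A, B and C, against 7, 4 and 2 in GFP A, B and C, and the scaled groups did not overlap. Its pooled CPM ratio was 2.56 (95% counting interval 1.31 to 5.31). Ccl3 had 16, 2 and 5 counts in Gas5 A, B and C, against 7, 5 and 1 in GFP A, B and C. Here the groups overlapped, the interval of the ratio of 1.79 ran from 0.868 to 3.84, and without Gas5 A the ratio was 0.832. The Ccl3 counts therefore give no direction beyond the spread between libraries.

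Cxcl9 and Cxcl13 had the largest ratios and the fewest GFP reads. Cxcl9, which interferon-gamma induces in macrophages and endothelial cells to draw in T cells, had 8, 17 and 11 counts in Gas5 A, B and C, against 1, 1 and 0 in GFP A, B and C. Cxcl13, the B cell attractant, had 8, 17 and 9 counts in the Gas5 libraries, against 2, 0 and 0 in the GFP ones. In both genes Gas5 B was the highest library and every Gas5 library lay above every GFP library. The pooled CPM ratio was 18.2 for Cxcl9 (95% counting interval 4.68 to 156) and 17.2 for Cxcl13 (4.40 to 148). These intervals are wide because the GFP libraries together held 2 reads of each gene. The exact permutation p was 0.1 for Cxcl9 and Cxcl13, as for Ccl4 and Ccl7, and 0.5 for Ccl3. Leaving out each library in turn moved the Cxcl9 ratio between 13.6 and 25.2.

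Neither gene entered the main test, since the filter asks for about 10 reads in 3 libraries. Without that filter, edgeR tested 28611 genes, of which 2.29% rose and 3.5% fell. In that fit 4 of 8 chemokines rose and 0 fell. Cxcl9 had an edgeR adjusted p of 0.00411 and Cxcl13 of 0.00780, beside Cxcl16 at 8.71e-04 and Ccl5 at 0.0227. Ccl7 missed the threshold with a log2 fold change of 1.73 (SE 0.516, edgeR adjusted p = 0.0575). Ccl4 and Ccl3 had log2 fold changes of 1.35 and 0.84, with edgeR adjusted p of 0.206 and 0.662. That fit kept every gene with any count. Cxcl9 and Cxcl13 had nearly all of their reads in the Gas5 group, with 2 in the GFP libraries together. Their calls therefore stand apart from those of genes well read in both groups and are not used as support.

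**Figure D2:**
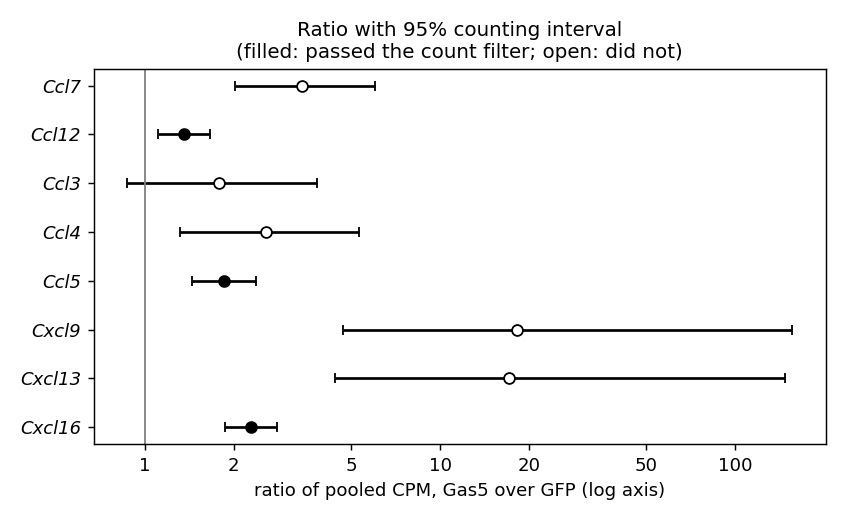
Ratio of pooled CPM, Gas5 over GFP, on a log axis with the 95% counting interval, for the 8 chemokines with counts (filled points passed the count filter, open points did not). The interval of Ccl3 spans 1, and those of Cxcl9 and Cxcl13 begin above 4 but reach beyond 100.

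The 2 chemokines without counts are listed at 0 in all 6 libraries because of where they lie. Ccl2, the main monocyte attractant, occupies chromosome 11 from 82035571 to 82037453 on the plus strand, wholly inside Gm17268 on the minus strand. Cxcl10 occupies chromosome 5 from 92346638 to 92348889 on the minus strand, wholly inside Art3 on the plus strand, as does Cxcl11, the third CXCR3 ligand. Over all listed genes, 12811 lie wholly inside others and 0 of these had a count. A 0 for Ccl2 or Cxcl10 is therefore a gap in the measurement and says nothing of their expression. Of the host genes, Art3 had a log2 fold change of 0.08 (edgeR adjusted p = 0.752). Gm17268 had 7, 4 and 6 counts against 2, 3 and 4, too few for the test.

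Levels can be set against each other only per length, as mean CPM per kilobase of the span whose reads could be counted. On that scale the order in the GFP group was Ccl12 at 0.866 ± 0.246, Cxcl16 at 0.217 ± 0.0615, Ccl5 at 0.169 ± 0.0146, Ccl7 at 0.0860 ± 0.0327, Ccl3 at 0.0633 ± 0.0368, Ccl4 at 0.0465 ± 0.0152, Cxcl13 at 0.00291 ± 0.00505 and Cxcl9 at 0.00217 ± 0.00197 (SD, n = 3 each). Ccl12 stood apart at the top, and Cxcl9 and Cxcl13 together at the bottom. Cxcl16 and Ccl5 lay within their spread of each other, as did Ccl7, Ccl3 and Ccl4. In the Gas5 group Ccl12 again led at 1.19 ± 0.267, followed by Cxcl16 at 0.482 ± 0.0245 and Ccl5 at 0.308 ± 0.0428. Cxcl13 at 0.0660 ± 0.0270 and Cxcl9 at 0.0429 ± 0.0157 were still the lowest. Exons make up between 20.2% and 50.7% of the spans of these 8 genes, so the scale is not a transcript level.

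RefSeq promoter sequences were at hand for 5 of the 10 genes, Ccl3, Ccl12, Cxcl9, Cxcl10 and Cxcl13, and not for Ccl2, Ccl4, Ccl5, Ccl7 and Cxcl16. The 250 bases before the start were searched on both strands for 3 motifs. These were the NF-kB consensus, the interferon-stimulated response element TTTCNNTTTC and the gamma-activated site TTCNNNGAA. Matches occurred in 7.25%, 2.98% and 7.02% of the 32851 RefSeq promoter windows of the same length. Among the 5 chemokines they occurred in Cxcl10 alone, with NF-kB matches at 150 to 159 and at 94 to 104 bases upstream, the latter stretch holding overlapping matches, and an interferon element at 204 to 213 bases upstream on the minus strand of the window. The windows of Cxcl9 and Cxcl13, the genes with the largest ratios, are printed with that of Cxcl10 for comparison, 5′ to 3′ on the strand of the gene, with motif matches in capitals.
Cxcl9: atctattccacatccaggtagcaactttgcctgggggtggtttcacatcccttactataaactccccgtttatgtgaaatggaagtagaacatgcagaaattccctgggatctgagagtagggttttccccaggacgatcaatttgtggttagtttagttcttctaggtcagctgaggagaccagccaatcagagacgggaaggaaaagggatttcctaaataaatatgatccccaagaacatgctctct
Cxcl13: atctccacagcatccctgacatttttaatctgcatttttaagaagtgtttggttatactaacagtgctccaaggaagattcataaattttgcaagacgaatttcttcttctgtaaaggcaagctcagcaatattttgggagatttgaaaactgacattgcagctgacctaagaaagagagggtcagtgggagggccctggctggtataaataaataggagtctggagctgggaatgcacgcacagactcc
Cxcl10: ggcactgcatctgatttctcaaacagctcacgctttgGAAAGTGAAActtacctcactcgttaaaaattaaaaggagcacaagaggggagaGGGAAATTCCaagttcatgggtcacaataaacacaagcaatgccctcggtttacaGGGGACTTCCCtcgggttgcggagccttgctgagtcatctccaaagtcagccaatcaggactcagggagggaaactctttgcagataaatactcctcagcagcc
They lie on GRCm38.p6 at chr5:92328080-92328329 (minus strand), chr5:95956689-95956938 (plus) and chr5:92348890-92349139 (minus). A window without a match shows only that these letters are not in it.

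The receptors of these chemokines were tested next, within a list of 23 chemokine receptors. Of the 13 tested, 0 were called by edgeR, by DESeq2 or by limma-voom, with 3 higher and 0 lower at an unadjusted p under 0.05 in edgeR, where 10.2% of all tested genes were higher. The median log2 fold change was 0.36, beside 0.02 over all tested genes. Among the 3 were Ccr7 and Cxcr4. Ccr7, the receptor that guides dendritic cells and T cells to lymph nodes, had 22, 12 and 20 counts in Gas5 A, B and C, against 12, 6 and 6 in GFP A, B and C. Its scaled groups did not overlap, and its fitted difference was 1.18 on the log2 scale (SE 0.361, edgeR adjusted p = 0.102). Cxcr4, the receptor of Cxcl12, had 96, 23 and 31 counts in Gas5 A, B and C, against 16, 18 and 17 in GFP A, B and C, with an edgeR adjusted p of 0.154.

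Ccr2, the receptor of Ccl2, Ccl7 and Ccl12 on monocytes, had 126, 19 and 37 counts in Gas5 A, B and C, against 37, 10 and 30 in GFP A, B and C. Gas5 A alone stood out, the groups overlapped, and the fitted difference was 1.23 on the log2 scale (SE 0.671, edgeR adjusted p = 0.336). Ccr1, a further receptor of Ccl3, Ccl5 and Ccl7, had a log2 fold change of 0.55 (edgeR adjusted p = 0.582). Cxcr5, the receptor of Cxcl13, had 0.50 with an adjusted p of 0.499. Cxcr3, the receptor of Cxcl9 and Cxcl10, had only 4, 1 and 3 counts in the Gas5 libraries, against 0, 0 and 1 in the GFP ones. Cxcr6, the receptor of Cxcl16, lies wholly inside Fyco1 and could not be counted. The atypical receptors Ackr1 and Ackr2, which bind chemokines without signalling through G proteins, had log2 fold changes of -0.33 and 0.04, with edgeR adjusted p of 0.268 and 0.941. Ackr1 passed the threshold, lower, when Gas5 B was left out.

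**Figure D3:**
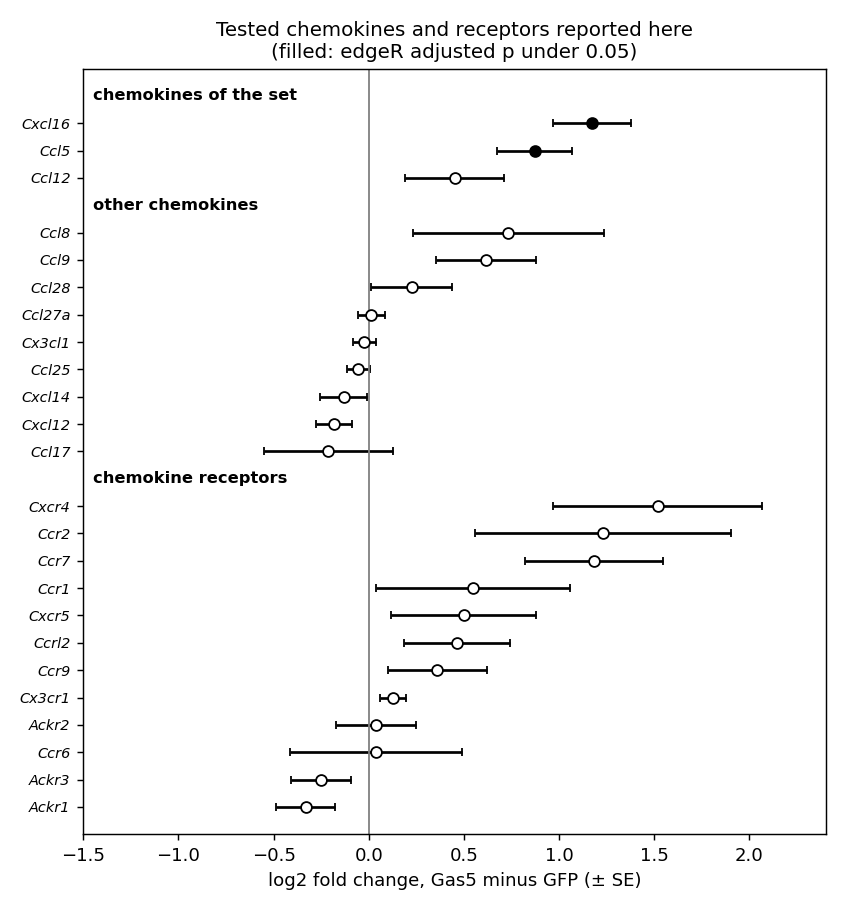
Log2 fold change, Gas5 minus GFP, with its standard error for the tested members of the set, the other tested chemokines and the tested chemokine receptors reported here (filled where the edgeR adjusted p is under 0.05). Cxcl16 at 1.17 and Ccl5 at 0.87 are the filled points, and the 9 other chemokines lie on both sides of 0.

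The other chemokines were spread around no change. Of 28 listed, 9 were tested, and 0 were called by edgeR, DESeq2 or limma-voom. At an unadjusted p under 0.05 in edgeR 1 was higher and 0 lower, where 10.2% of all tested genes were higher. The 9 had a median log2 fold change of -0.02, beside 0.02 over all tested genes. The 1 was Ccl9, a CC chemokine of myeloid cells, with a log2 fold change of 0.62 (SE 0.263, edgeR adjusted p = 0.221). Ccl8, which also attracts monocytes, had a log2 fold change of 0.73 (SE 0.503, edgeR adjusted p = 0.447). Cxcl12, the constitutive ligand of Cxcr4, had -0.18 with an adjusted p of 0.313, at 24.7 CPM ± 2.96 against 28.0 CPM ± 2.43 (SD, n = 3 each).

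Genes of the inflammatory cytokines and NF-kB, a pathway that induces many chemokines, had 2 of 21 tested members higher and 0 lower by edgeR, beside 1.48% and 3.96% of all tested genes. Tlr2, a sensor of microbial lipoproteins, stood at 3.40 CPM ± 0.602 against 1.39 CPM ± 0.339 (SD, n = 3 each), with a log2 fold change of 1.28 (SE 0.210, edgeR adjusted p = 0.0160). Tnfrsf1a, the main receptor of TNF, was at 8.82 CPM ± 1.21 against 5.77 CPM ± 0.294 (SD, n = 3 each), a 1.53-fold difference with an adjusted p of 0.0224. Both calls were lost without GFP B and without GFP C, where few genes of the whole table were called higher (4 and 6, against 260). Vcam1, an adhesion molecule that leukocytes bind on vessels, had a log2 fold change of 0.68 (edgeR adjusted p = 0.0970). Tnf itself had 14, 11 and 8 counts in Gas5 A, B and C, against 3, 1 and 3 in GFP A, B and C, below the filter. It was chosen after its values were seen.

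Of the 16 tested interferon signalling genes, 0 were called by edgeR and by limma-voom and 1 by DESeq2. At an unadjusted p under 0.05 in edgeR 3 were higher and 0 lower, where 10.2% of all tested genes were higher. The median log2 fold change of the 16 was 0.17. Irf7, a transcription factor of the interferon response, had a log2 fold change of 0.76 (SE 0.236, edgeR adjusted p = 0.106). Socs3, an inhibitor of cytokine signalling, had 1.44 with an adjusted p of 0.106, and its 248 counts in Gas5 A stood above 84 and 70 in Gas5 B and C. Irf9, a subunit of the interferon-induced factor ISGF3, had 0.31 with an adjusted p of 0.219. Of the span of Ifng, the inducer of Cxcl9, 56.2% was uncountable. It had 2, 0 and 2 counts in the Gas5 libraries, against 0, 0 and 1 in the GFP ones. It too was chosen after its values were seen.

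Markers of the cells that make or follow chemokines differed between the libraries too. In bulk tissue, more cells of a type and more RNA per cell cannot be told apart. The 14 microglia markers summed to 401, 367 and 385 CPM in Gas5 A, B and C, against 340, 312 and 349 CPM in GFP A, B and C, without overlap, with P2ry12 uncountable in all. Of the 13 tested, 0 were called by edgeR, with 10 higher and 0 lower at an unadjusted p under 0.05. Over all tested genes 10.2% were higher and 11.2% lower at that unadjusted p, and 1.48% were called higher. The 10 monocyte and macrophage markers summed to 80.7, 50.5 and 60.4 CPM in the Gas5 libraries, against 50.8, 43.3 and 50.1 CPM in the GFP ones, and 0 were at 0 in any library. Gas5 A was the highest, and Gas5 B lay among the GFP libraries. Of these, 0 of 10 were called by edgeR, with 6 higher at an unadjusted p under 0.05. Ly6c2, a marker of inflammatory monocytes, had 200, 35 and 55 counts in Gas5 A, B and C, against 26, 6 and 17 in GFP A, B and C, with an adjusted p of 0.0722.

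Of the T and NK cell markers, 3 of 14 were tested and 0 called by edgeR. At an unadjusted p under 0.05, 1 of these markers was higher, where 10.2% of all tested genes were. Their sum ranged from 11.2 to 19.4 CPM in the Gas5 group and from 15.5 to 17.9 CPM in the GFP group. Most of it came from Cd4. Without Cd4, left out after its values were seen, the other 13 summed to 2.39, 2.13 and 3.10 CPM in Gas5 A, B and C, against 1.55, 1.43 and 1.57 CPM in GFP A, B and C. In 5 of the 14 (Cd3d, Nkg7, Gzma, Gzmb and Ncr1) every Gas5 library exceeded every GFP library, and in the other 9 the groups overlapped. Of all genes with any count, 9.78% were arranged in that way. Of the 5 only Gzma passed the count filter (edgeR adjusted p = 0.130), and it did so only through the Gas5 libraries. Gzma was also the 1 marker higher at the unadjusted p, so that count is not used as support. Among the T cell receptor components, Cd3d had 2, 4 and 6 counts against 1, 0 and 1, Cd3g had 1, 2 and 2 against 0, 0 and 1, and Cd3e, with 43.7% of its span uncountable, had 0, 0 and 2 against 3, 0 and 0. Trbc2 had 7, 7 and 4 counts against 1, 6 and 2. Trac, the only tested component, had 11, 25 and 19 counts against 23, 12 and 11. Its groups overlapped, with a log2 fold change of 0.29 (edgeR adjusted p = 0.688). Gzmb, a granule protease of cytotoxic cells, had 25, 9 and 17 counts against 6, 2 and 5, while the cytotoxic T cell marker Cd8a had 7, 7 and 10 against 9, 9 and 7. The single markers given here and above, Ly6c2 included, were chosen after their values were seen. The sums of border macrophage markers (22.6 to 32.3 CPM in the Gas5 group and 17.3 to 25.9 CPM in the GFP group) overlapped, as did those of red blood cell markers (5.96 to 9.30 and 8.72 to 9.65 CPM). Astrocyte sums (2670 to 3209 and 3042 to 3260 CPM) came mostly from Slc1a2, at 2209 CPM ± 298 against 2561 CPM ± 73.7 (SD, n = 3 each), and Gfap was uncountable. Of the 7 astrocyte markers tested, 1 was called higher by edgeR, Aqp4 (adjusted p = 0.0486), 0 were lower, and 4 were higher at an unadjusted p under 0.05. Of all tested genes, 1.48% were called higher and 3.96% lower, and 10.2% were higher at the unadjusted p. The dendritic cell sums were lower in every Gas5 library (21.9 to 24.2 and 26.8 to 29.7 CPM), but the list was mixed, with a median log2 fold change of 0.15. Of its 5 tested markers edgeR called Flt3 and Zbtb46 lower and Itgax higher (adjusted p = 0.0152, 0.0486 and 0.0188). The endothelial sums were lower too (218 to 232 and 239 to 250 CPM), with Flt1 the 1 marker of 8 called, lower (edgeR adjusted p = 0.0300), 5 of 8 with a positive log2 fold change, and a median near 0. The 7 B and plasma cell markers summed to 5.89 to 6.86 CPM in the Gas5 group and 6.59 to 10.8 CPM in the GFP group, and the 7 neutrophil markers to 0.719 to 1.59 CPM and 0.726 to 0.972 CPM. Ms4a1 and Ly6g, defining markers of B cells and neutrophils, were at 0 in every library, and Ms4a1 was not countable. The part of these cell types in the chemokine differences was not tested.

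**Figure D4:**
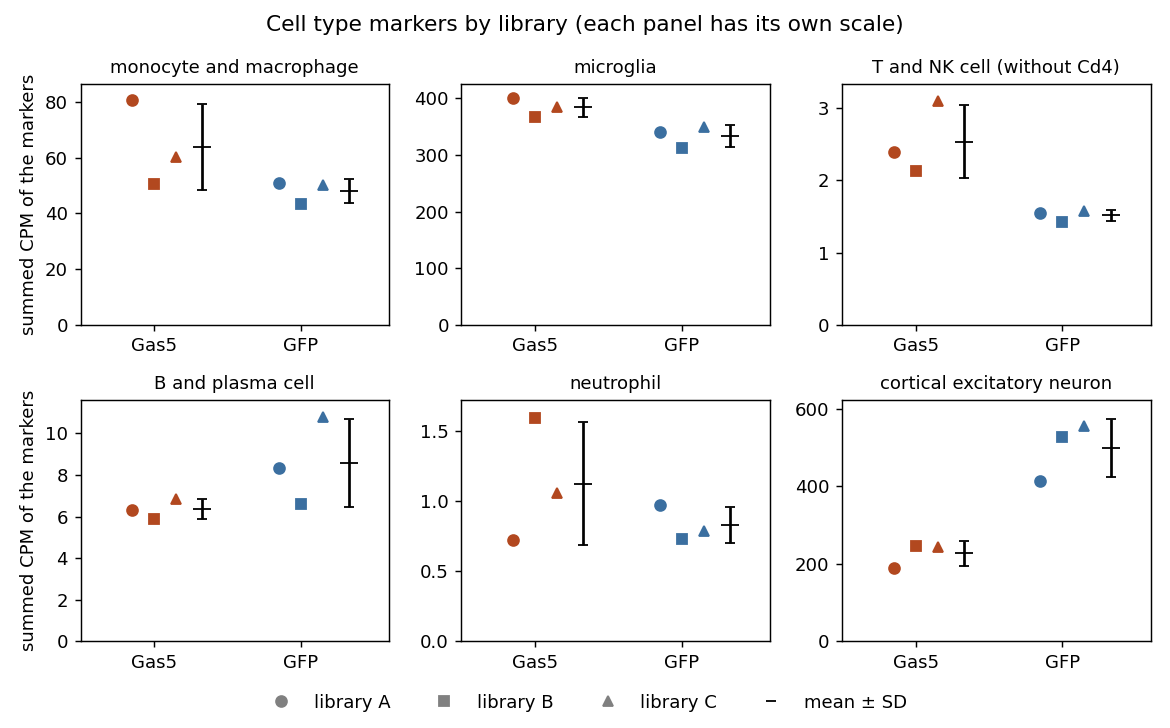
Summed CPM of 6 lists of cell type markers in the Gas5 and GFP libraries (circles A, squares B, triangles C), with the mean ± SD and a separate scale per panel. Microglia and T and NK cell sums (the latter without Cd4) are higher in all Gas5 libraries, the cortical excitatory neuron sums lower, and the monocyte sum is highest in Gas5 A.

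The genes whose levels followed the 3 tested chemokines most closely were Itgax, Vav1, Apbb1ip, C1qa and Isoc1, by Pearson correlation with their mean log2 CPM over the 6 libraries. The coefficients were 0.993, 0.989, 0.989, 0.987 and 0.987 among 12425 genes compared, of which 73 exceeded 0.95. The 6 libraries form 2 groups that these chemokines separate, so the coefficients are a description. Itgax, an integrin subunit of myeloid cells that is also on the dendritic cell list, had the highest coefficient, at 2.69, 2.50 and 2.14 CPM in Gas5 A, B and C, against 1.08, 0.804 and 1.35 CPM in GFP A, B and C. Vav1 is a signalling protein of blood-derived cells, and C1qa is a complement subunit made in the brain by microglia.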

How the data were processed

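Bulk RNA-seq of 6 libraries was used. Per the labels' protocols, total RNA was depleted of ribosomal RNA and made into strand-marking libraries. The submitters' processing notes name STAR 2.7.0, featureCounts 1.5.0-p3 and GRCm38.p6; the annotation, strand setting and overlap handling were not found there. The values are raw counts per gene, as deposited by the authors. Genes were counted over their whole span, introns included, and reads in overlaps of listed genes are absent.

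Testing used edgeR 4.0.16 under R 4.3.3 (expression filter, TMM scaling, quasi-likelihood test, Benjamini-Hochberg adjustment over all 17563 tested genes, threshold 0.05), and calls were checked with DESeq2 1.42.0 and limma 3.58.1. Log2 CPM used a pseudocount of 0.5. Standard errors (SE) were taken from the fold change and its F statistic. The fits were tested on simulated data. Exact permutation tests and 95% Clopper-Pearson intervals used scipy 1.17.1. The members and gene lists were chosen with earlier results of these data known. Named genes were the members, the 3 tested genes of smallest p in each list, the members' receptors with Ackr1 and Ackr2, and the 5 genes most correlated with the tested members; cell type markers were described as lists, and the single markers named were chosen after their values were seen. The letters A, B and C were not taken as pairs. One tested chemokine receptor that this rule names is not reported here.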

Additional observations from a re-analysis of the deposited data

How the results depend on the processing

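Ccl5, Ccl12 and Cxcl16 kept their direction under all 11 alternatives, and Cxcl16 kept its call in 10 of them. The chemokines called higher numbered 4 of 8 tested without the expression filter, Cxcl9 and Cxcl13 among them, and 1 of 3 with the replicate block. With a library left out they numbered 0 to 2 (0 without GFP B), of 3 to 5 tested. Cxcl9 was 1 of the 2 without Gas5 A and 1 of the 2 without GFP A. With GFP counts of 1, 1 and 0, Cxcl9 could pass the filter only through the Gas5 libraries, so its values with a library left out support nothing; it was called without Gas5 A (edgeR adjusted p = 0.0172) and without GFP A (0.0476), but not without GFP B (0.0756) or GFP C (0.0765). With the replicate block Ccl5 differed by 0.87 on the log2 scale (edgeR adjusted p = 0.0598), and with a library left out by 0.78 to 0.97. Cxcl16 ranged from 1.01 to 1.38. The Ccl3 ratio was 0.832 without Gas5 A and up to 2.48 with another library left out. No Cxcl13 ratio could be formed without GFP A, since the other GFP libraries held no read of it. Genes called higher over the whole table numbered 260, against 656 without the filter, 495 with DESeq2, 510 with the replicate block and 4 to 251 with a library left out (4 without GFP B, 6 without GFP C, 112 without Gas5 A). Those called lower numbered 695, against 101 to 611 (101 without GFP C, 111 without GFP B). Receptors called numbered 1 higher without the filter and 0 to 1 lower with a library left out. Inflammatory genes called higher numbered 4 without the filter and 0 to 3 with a library left out. Interferon signalling genes called higher numbered 2 without the filter, 1 with DESeq2 and 2 with the replicate block. The cause of these shifts was not tested. Same-lettered libraries deviated together with correlations of 0.164, 0.179 and -0.0936, so not every library went best with its own letter and the letters were not used as pairs. Depth limits the 5 chemokines below the filter, whose GFP libraries together held between 2 and 19 reads each.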
